A study of Mus musculus with 6 samples.

Results

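Expression of 9 genes of B cells, plasma cells and IgA transport was followed on 6 arrays of mouse proximal colon. Every probe set was taken whose platform symbol was Cd79a, Cd79b, Cd22, Ms4a1, Pou2af1, Jchain, Tnfrsf17, Pigr or Plcg2. All 9 genes were present, at 12 of 22626 probe sets that were not controls. Of the arrays, 3 came from mice heterozygous for a BayGenomics gene trap in Mthfd1 (labelled Mthfd1/+) and 3 from wild-type mice. Every animal was 8 weeks old, had been weaned at 3 weeks and had then eaten the AIN-93G control diet for 5 weeks, and no group received another treatment. The trap is in the germ line, so all cell types of the colon wall carry it, and the labels give neither strain, sex, litter nor the site of the trap. Each array is a biological replicate by its title. It is read here as 1 animal, though the titles do not say whether RNA was pooled.

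B cells carry an antigen receptor whose signal passes through the CD79A and CD79B chains, and in the gut they gather in lymphoid follicles of the wall. After switching to IgA they leave as plasma cells, which lie in the mucosa and secrete IgA as dimers held together by the J chain. The polymeric immunoglobulin receptor of the epithelium, encoded by Pigr, binds these dimers at the base of the cell and carries them into the lumen. Plcg2 encodes a phospholipase that acts downstream of the B-cell receptor, and it is also used by myeloid cells and tuft cells.

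The members showed 3 patterns. The 4 follicle genes Cd79a, Cd79b, Cd22 and Ms4a1 varied several-fold between animals of both genotypes. Of these, Cd79a, Cd79b and Cd22 were too dim to be tested. Their spread was not compared with that of equally dim probe sets, so the part of signal level in it was not tested. Jchain and Pigr were bright, and their spread between animals was not wide: from the lowest to the highest array they spanned 0.49 and 0.30 log2, against a median of 0.49 over all tested probe sets. Plcg2 separated the genotypes, with the 3 heterozygous arrays below the 3 wild-type ones, as at 5.1% of tested probe sets. The Pigr probe set with the lower wild-type mean separated them as well, with higher heterozygous values, as at 5.26%. None of the 6 member probe sets bright enough to be tested passed limma's test adjusted over all 13576 tested probe sets, where 0% of probe sets passed in all.

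The 250 bases before the annotated start of 4 members are given because they stand for the 3 patterns. Cd79a and Cd22 stand for the genes that varied together, Jchain for the bright ones and Plcg2 for the gene lower in every heterozygous array. The sequences are from RefSeq, read 5′ to 3′ on the strand of the gene. Capitals mark a match, on either strand, to 1 of 5 motifs: the octamer ATGCAAAT, the EBF core CCCNNGGG, an ETS site AGGAAGT, an E-box CACGTG and the interferon regulatory factor letters AANNGAAA.
Cd79a, GRCm38.p6 chr7:24897247-24897496, plus strand: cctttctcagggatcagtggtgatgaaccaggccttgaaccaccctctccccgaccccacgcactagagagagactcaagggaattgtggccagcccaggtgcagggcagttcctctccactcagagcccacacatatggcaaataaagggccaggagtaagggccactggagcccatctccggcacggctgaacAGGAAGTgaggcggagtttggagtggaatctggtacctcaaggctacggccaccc
Cd22, GRCm38.p6 chr7:30879029-30879278, minus strand: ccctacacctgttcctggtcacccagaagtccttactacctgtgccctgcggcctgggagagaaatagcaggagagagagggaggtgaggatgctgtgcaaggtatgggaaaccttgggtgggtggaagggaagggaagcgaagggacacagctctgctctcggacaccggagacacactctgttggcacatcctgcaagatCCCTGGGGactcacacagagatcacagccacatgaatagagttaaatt
Jchain, GRCm38.p6 chr5:88527898-88528147, minus strand: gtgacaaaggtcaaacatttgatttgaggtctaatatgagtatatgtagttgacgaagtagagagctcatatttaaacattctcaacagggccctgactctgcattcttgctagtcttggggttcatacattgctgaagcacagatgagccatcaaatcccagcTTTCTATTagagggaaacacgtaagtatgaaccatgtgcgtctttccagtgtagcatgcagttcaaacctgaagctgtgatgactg
Plcg2, GRCm38.p6 chr8:117498025-117498274, plus strand: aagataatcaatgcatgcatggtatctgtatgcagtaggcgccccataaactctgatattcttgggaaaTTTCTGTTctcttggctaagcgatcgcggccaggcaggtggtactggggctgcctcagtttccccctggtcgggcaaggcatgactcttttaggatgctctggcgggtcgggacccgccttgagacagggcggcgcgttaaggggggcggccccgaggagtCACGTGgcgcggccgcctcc

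Such windows were found for 7 of the 9 members, and not for Cd79b or Ms4a1. The capitals are the ETS letters in Cd79a, the EBF letters in Cd22, the interferon regulatory factor letters in Jchain, and both these and the E-box in Plcg2, and none of the matches overlapped another. The ETS letters occurred in 1 of the 7 member windows and in 7.69% of all 32851 windows of this length. The EBF letters occurred in 1 and in 11.82%. The E-box occurred in 2, those of Pigr and Plcg2, and in 6.02%. The octamer, the element to which the Pou2af1 product is recruited, occurred in 0 and in 1.6%. The interferon regulatory factor letters occurred in 3, those of Jchain, Plcg2 and Tnfrsf17, and in 21.31%. These 5 were picked with their matches in view from 16 letter patterns tried, and the EBF and interferon letters are shortened forms taken up afterwards. Of the patterns not shown, 8 had under 10 letters: they occurred in 0 to 7 of the member windows, the 7 for the general E-box CANNTG, which 66.22% of all windows hold. No count here is therefore evidence for a motif, and a match describes the letters only.

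The deposited table gives each probe set a linear signal on each array, with no background or detection column. A dim probe set is therefore not shown to be above background. The probe sets tested were those whose mean log2(signal + 16) reached the 40th percentile, about 93.3 in signal, and all differences are on that log2 scale as heterozygous minus wild-type. Of the 12 member probe sets, 6 passed this level: 1 each of Ms4a1, Pou2af1, Jchain and Plcg2, and both of Pigr. As a check of the labels, the brightest Mthfd1 probe set read 453.1, 509.6 and 549.4 in heterozygous colon, against 949.9, 838.6 and 881.4 in wild-type colon (exact permutation p = 0.1). The defining colonocyte genes were bright on all arrays: the carbonic anhydrase gene Car1 read from 15442.6 to 19083.6 in heterozygous colon and from 16365.3 to 16800.1 in wild-type colon.

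The follicle genes overlapped between the genotypes. Ms4a1, which encodes the B-cell surface protein CD20, read 196, 57.9 and 46.6 in heterozygous replicates 1, 2 and 3, against 113.7, 34.9 and 279.7 in wild-type replicates 1, 2 and 3. The groups overlapped fully, and the highest array was 8.01 times the lowest. The difference was -0.33 (SE 0.63, 95% interval -1.75 to 1.08), with a limma adjusted p of 0.973. Without wild-type replicate 3 it was 0.29, so its sign rested on that animal. A dimmer Ms4a1 probe set read 47.3, 28.3 and 11.1 in heterozygous colon and 26.7, 2 and 31.6 in wild-type colon.

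Cd79b, a signalling chain of the B-cell receptor, read 146.4, 52.2 and 44.2 in heterozygous colon, against 107.1, 28.2 and 142.7 in wild-type colon. Its partner Cd79a read 75.6, 35.9 and 55.6 in heterozygous colon, against 31.8, 31.8 and 129.8 in wild-type colon. Heterozygous replicate 1 and wild-type replicate 3 were the highest arrays for both chains, 1 from each genotype. Cd22, an inhibitory lectin of B cells, read 111.3, 51.7 and 68.3 in heterozygous colon, against 86.4, 60 and 147.3 in wild-type colon at its brighter probe set. The dimmer read 40, 2.2 and 13.9 in heterozygous colon and 21.5, 2.2 and 34.3 in wild-type colon. All of these lay below the level for testing, so they carry no test, and at every one the groups overlapped.

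**Figure D1:**
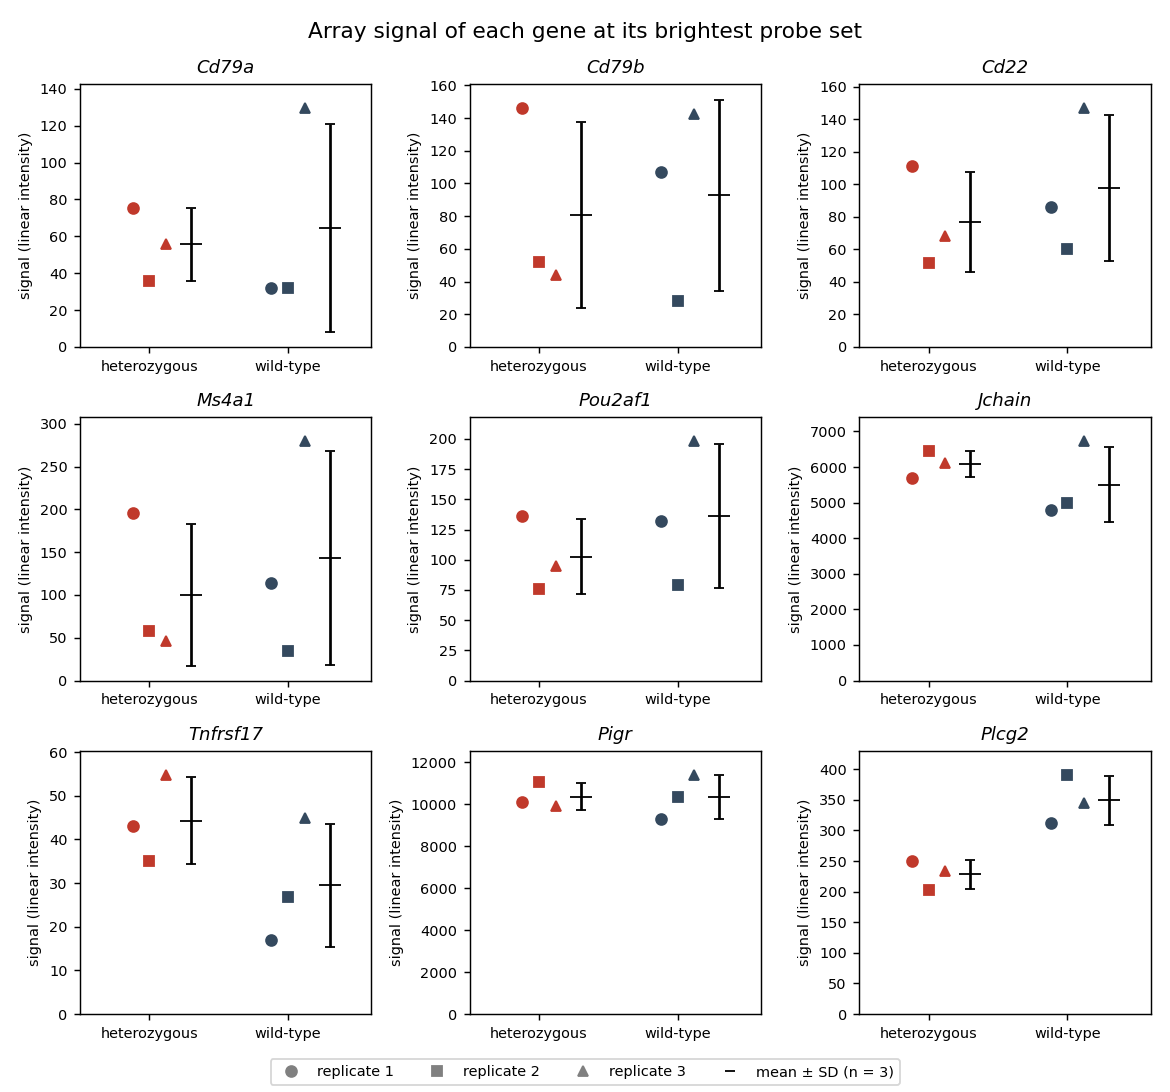
Signal (linear intensity, from 0) of each of the 9 genes at its brightest probe set, with heterozygous arrays in red at left and wild-type arrays in dark blue at right. Symbols mark the replicate, and the bar is the mean ± SD (n = 3). The follicle genes spread widely within both genotypes, whereas the Plcg2 arrays, at 203.2 to 249.6 in heterozygous and 311.8 to 391.1 in wild-type colon, do not overlap.

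Heterozygous replicate 1 and wild-type replicate 3 held the 2 highest values of all 4 follicle genes and of Pou2af1, at the brightest probe set of each. The same pair of arrays was highest for 11.2% of the 12393 genes on the array and 13.0% of the 8241 tested genes. Among 23 further B-cell genes on the array, from a list written for this report, the pair was highest for 9: Ccr6, Cd72, Cd83, Cr2, Cxcr5, Fcer2a, Ighm, Spib and Tnfrsf13b. Of these, 5 (Ccr6, Cr2, Cxcr5, Fcer2a and Tnfrsf13b) lay below the level for testing, with signals of 8.4 to 105.5, and are not shown to be above background. Among the 10 tested, the pair was highest for 4: Cd72, Cd83, Ighm and Spib, the last a transcription factor gene of B cells. Ighm was read at its brightest probe set, and several of its other tested probe sets were highest in other arrays. The follicle members Cd79a, Cd79b and Cd22 also lay below that level. This count was chosen after the values had been seen.

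Smooth muscle markers, and the sum of colonocyte markers, moved with the same animals. The 4 smooth muscle genes Acta2, Des, Myh11 and Tagln were each highest in heterozygous replicate 1 and wild-type replicate 3. Their summed signal was 32144.5, 26850.9 and 28988.9 in heterozygous replicates 1, 2 and 3, against 29302.8, 26000.4 and 34315.9 in wild-type replicates 1, 2 and 3. The 6 colonocyte genes summed to 31539.6, 38681.9 and 42206.5 in heterozygous colon, against 38817.2, 40910.1 and 32036.6 in wild-type colon, lowest in the same pair of animals. By gene, this pair was lowest for Aqp8, Krt20 and Vil1, but not for Car1, Cdx2 and Slc26a3. The share of all genes lowest in this pair was not counted, so this split has no reference beside it. The smallest p-values of the colonocyte list were those of Slc26a3 (-0.24, limma adjusted p = 0.908), Aqp8 (0.75, limma adjusted p = 0.916) and Cdx2 (-0.11, limma adjusted p = 0.937). All had overlapping groups. The part of smooth muscle and colonocytes in the follicle values was not tested. In whole tissue, fewer cells of a type and less RNA per cell cannot be told apart.

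Pou2af1, a transcriptional coactivator of B cells and plasma cells, ran with the follicle genes and not with Jchain. It read 136.4, 75.7 and 95 in heterozygous colon, against 131.7, 79.1 and 198.2 in wild-type colon. The groups overlapped, and the difference was -0.32 (SE 0.31, 95% interval -1.01 to 0.37; limma adjusted p = 0.937). It was -0.03 with wild-type replicate 3 left out and -0.62 with wild-type replicate 2 left out.

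Of the 3 plasma cell members, Jchain spread least. Jchain, the joining chain of dimeric IgA, read 5696.6, 6443.9 and 6120.2 in heterozygous colon, against 4794.2, 4999.7 and 6726.7 in wild-type colon. Wild-type replicate 3 was the highest array and the other wild-type arrays the lowest, so the groups overlapped, and the highest array was 1.40 times the lowest. The mean was 6087 ± 375 in heterozygous and 5507 ± 1061 in wild-type colon (SD, n = 3 each), a difference of 0.16 (SE 0.13, 95% interval -0.13 to 0.45; limma adjusted p = 0.928). Leaving out wild-type replicate 3 gave 0.31, and leaving out wild-type replicate 1 gave 0.07.

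Tnfrsf17, the survival receptor BCMA of plasma cells, was dim, at 43, 35 and 54.8 in heterozygous colon, against 17, 26.8 and 44.8 in wild-type colon. The groups overlapped, with wild-type replicate 3 above heterozygous replicates 1 and 2. The means were 44.3 ± 9.96 and 29.5 ± 14.1 (SD, n = 3 each) in heterozygous and wild-type colon, and the probe set was below the level for testing. From the lowest to the highest array, Tnfrsf17 varied 3.22 times and Pou2af1 2.62 times, near the 2.85 times of the follicle gene Cd22. Among the plasma cell members, the smaller spread was therefore that of Jchain alone, by far the brightest of them.

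Follicle and plasma cell genes were set against each other within each array. For every gene, log2(signal + 16) was centred on its mean over the 6 arrays, so that no probe set's level was compared with another's, and the centred values were averaged over the 4 follicle genes and over Jchain, Tnfrsf17 and Pou2af1. The follicle mean was 0.63, -0.49 and -0.40 in heterozygous arrays, against 0.04, -0.77 and 1.0 in wild-type arrays. The plasma cell mean was 0.14, -0.11 and 0.11 in heterozygous arrays, against -0.24, -0.30 and 0.40 in wild-type arrays. The follicle mean thus spanned 1.77 log2 between animals and the plasma cell mean 0.70, which includes Jchain, a far brighter gene than the rest.

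The difference between them, follicle minus plasma cell, was 0.49, -0.38 and -0.52 in heterozygous arrays, against 0.28, -0.47 and 0.60 in wild-type arrays. It averaged -0.14 ± 0.55 in heterozygous and 0.14 ± 0.55 in wild-type arrays (SD, n = 3 each), a difference of -0.27. It ranged from -0.58 with heterozygous replicate 1 left out, and -0.57 with wild-type replicate 2 left out, to -0.04 with wild-type replicate 3 left out, and was -0.08 and -0.15 when heterozygous replicate 3 or 2 was omitted. Leaving out Pou2af1, which ran with the follicle genes, gave -0.48. Both genotypes held arrays with positive and with negative values. These means are descriptions, with no test.

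**Figure D2:**
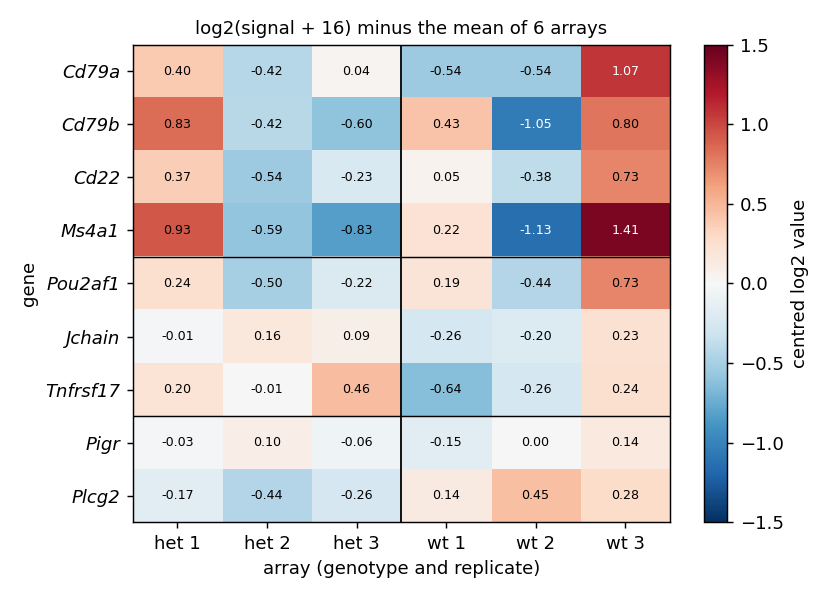
Centred log2(signal + 16) of the 9 genes (rows, brightest probe set) in the 6 arrays (columns; het is heterozygous, wt is wild-type), red above and blue below the gene's mean, with horizontal lines between follicle genes, plasma cell genes and the others. The follicle rows and Pou2af1 are highest in het 1 and wt 3, the Jchain and Pigr rows stay within 0.27 of 0, and the Plcg2 row is negative in all het and positive in all wt arrays.

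**Figure D3:**
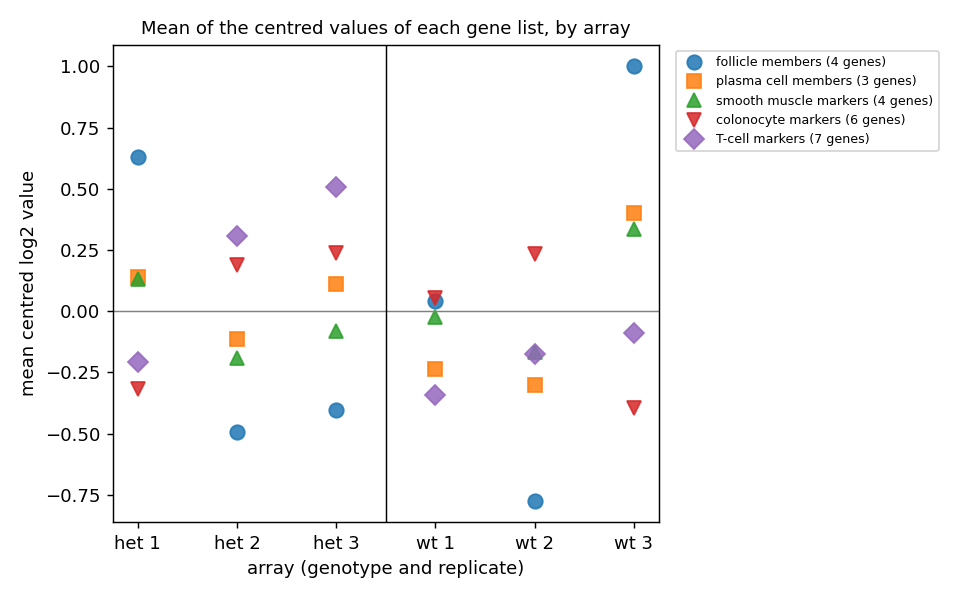
Mean centred log2 value (vertical axis) of the 4 follicle members, the 3 plasma cell members and the smooth muscle, colonocyte and T-cell marker lists in each array (het is heterozygous, wt is wild-type). Follicle and smooth muscle points are highest in het 1 and wt 3, where colonocyte points are lowest, and the T-cell points are highest in het 2 and het 3.

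Pigr, the epithelial receptor that exports IgA, was bright in every animal. The brighter of its 2 probe sets by wild-type mean read 10090.8, 11075.2 and 9886.7 in heterozygous colon, against 9283.8, 10344.4 and 11397.9 in wild-type colon. The groups overlapped, and the difference was 0.0045 (SE 0.09, 95% interval -0.19 to 0.20; limma adjusted p = 0.999). The other read 10630.4, 9997.8 and 9866.5 in heterozygous colon, against 9059.8, 9128.4 and 9406.5 in wild-type colon. There every heterozygous array was higher, by 0.14 (SE 0.06, 95% interval -0.0022 to 0.29; limma adjusted p = 0.874; exact permutation p = 0.1, the smallest that 3 against 3 arrays can give). Non-overlap with higher heterozygous values was found at 5.26% of tested probe sets. The probe sets differ on the separation of the genotypes, and both intervals lie below 0.3.

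Plcg2 was the only member with lower values in every heterozygous array. It read 249.6, 203.2 and 233.2 in heterozygous colon, against 311.8, 391.1 and 345.4 in wild-type colon. The groups did not overlap, and the heterozygous mean was 65.4% of the wild-type mean (229 ± 23.5 and 349 ± 39.8, SD, n = 3 each). The difference was -0.58 (SE 0.14, 95% interval -0.90 to -0.25), with an unadjusted p of 0.00286 and an adjusted p of 0.603 in limma, so it did not pass over all probe sets. The exact permutation p was 0.1, the smallest possible. Non-overlap with lower heterozygous values was found at 5.1% of tested probe sets, and an unadjusted p under 0.05 at 5.69%, or 2.56% for lower values. The gene has 1 probe set on the array, so no second measurement of it exists here. Earlier results had already named it among the genes with lower heterozygous values, and the separation is no independent support.

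The other tested genes of Plcg2 signalling were split in direction. Of 20 listed genes besides Plcg2, 15 were on the array and 11 were tested. Of these, 4 had higher and 7 lower values in heterozygous colon, 0 passed the adjusted threshold and the median difference was -0.07, against 0.01 over all 8241 tested genes. Leaving out 1 array at a time gave medians of -0.11 to -0.02, the nearest to 0 when wild-type replicate 2 was omitted. Unadjusted p was under 0.05 for 1 of the 11, in the lower direction, against 2.22% of all tested genes, and groups did not overlap for 1 in that direction, against 5.06%.

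That gene was Ptpn6, a phosphatase that restrains immune receptor signals, which read 255.5, 241.3 and 287.5 in heterozygous colon, against 425.1, 414.3 and 336.3 in wild-type colon (-0.55, SE 0.14; limma adjusted p = 0.616). A second tested Ptpn6 probe set had the opposite sign, at 218.6, 263.2 and 258.2 in heterozygous colon and 236.5, 185.1 and 189 in wild-type colon (0.26; limma adjusted p = 0.911), so no direction for Ptpn6 is settled. Blnk, the adaptor that brings the phospholipase to the B-cell receptor, had a difference of -0.21 (limma adjusted p = 0.908) with overlapping groups. It read 2663.4 to 3143.3 in heterozygous and 3067.3 to 3549.7 in wild-type colon, far brighter than Cd79a and Cd79b. The cells behind its signal were not tested. Blnk and Btk are also counted among the further B-cell genes. Prkcb, a protein kinase C that responds to the lipid product of phospholipases, was higher in every heterozygous array at its brightest probe set (0.27, SE 0.14; limma adjusted p = 0.910), a separation found for 5.59% of all tested genes. Its other tested probe set overlapped.

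**Figure D4:**
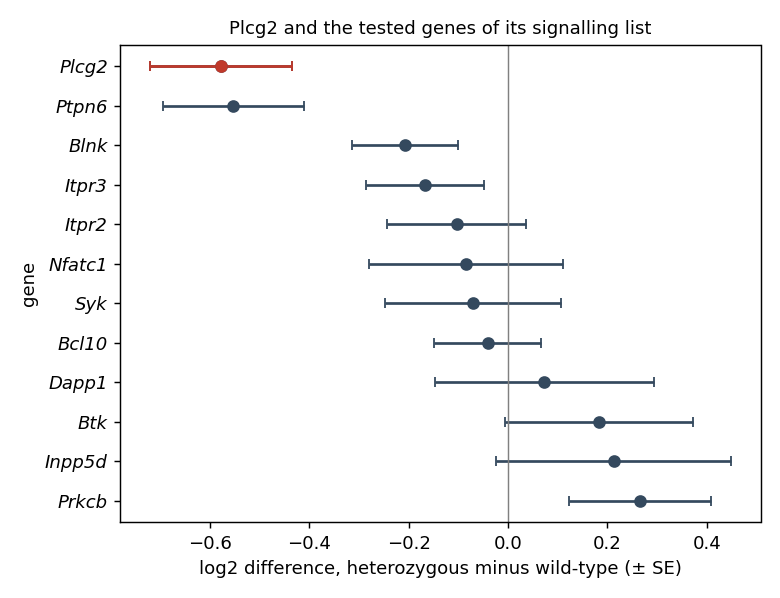
Log2 difference, heterozygous minus wild-type, with its SE for Plcg2 (red, top) and the 11 tested genes of its signalling list (dark blue), each at its brightest probe set. Plcg2 at -0.58 and Ptpn6 at -0.55 lie lowest and Prkcb at 0.27 highest; a second Ptpn6 probe set, not drawn, was at 0.26.

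Markers of the other cells that use Plcg2 were read in the same arrays. Of 10 listed tuft cell genes, 7 were on the array, and they summed to 717.8, 669.9 and 738.8 in heterozygous arrays, against 778.8, 702.7 and 956.3 in wild-type arrays. Among the 3 tested, 1 was higher and 2 were lower, and Avil, an actin-bundling protein of tuft cells, read 143.7, 116.8 and 125.2 in heterozygous colon, against 159, 162 and 194 in wild-type colon (-0.38, SE 0.16; limma adjusted p = 0.859). Alox5ap (0.19) and Dclk1 (-0.21) overlapped between the genotypes, and another tested Dclk1 probe set had 0.031. The defining tuft genes Trpm5 and Pou2f3 were below the level for testing. All 8 macrophage and dendritic cell markers were on the array and summed to 4587.4, 5804.2 and 6233.2 in heterozygous arrays, against 4314.8, 5270 and 4349.2 in wild-type arrays, with overlapping groups. Of the 7 tested, 6 had higher and 1 lower values and 0 passed the adjusted threshold. Groups did not overlap for 3, all higher, against 5.59% of tested genes, and unadjusted p was under 0.05 for 2, against 3.18%. The 3 were Itgax, the CD11c integrin chain (0.60, SE 0.17; limma adjusted p = 0.661), the endotoxin co-receptor gene Cd14 (0.45, SE 0.18; 0.821) and the growth factor receptor gene Csf1r (0.27, SE 0.12; 0.885). Other tested probe sets of Csf1r overlapped between the genotypes, at 0.098 and 0.030. The part of tuft cells, macrophages and dendritic cells in the Plcg2 difference was not tested.

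Further B-cell genes had values in both directions. Of 29 listed, 23 were on the array, and 10 were tested, with 6 higher and 4 lower in heterozygous colon, 0 past the adjusted threshold and a median of 0.17. With heterozygous replicate 1 left out the median was 0.02, and with wild-type replicate 1, 2 or 3 left out it was -0.02, 0.03 or 0.43. Unadjusted p was under 0.05 for 2, both higher, against 3.18% of all tested genes. Ltb, a cytokine that organises lymphoid tissue and is made by B and T cells, read 223.6, 186.1 and 296.6 in heterozygous colon, against 114.2, 50.4 and 183.5 in wild-type colon (1.04, SE 0.36; limma adjusted p = 0.750). Its groups did not overlap, against 5.59% of tested genes in that direction.

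T-cell markers were highest in heterozygous replicates 2 and 3. The 7 on the array summed to 620.4, 946.3 and 1174.3 in heterozygous arrays, against 611, 622.8 and 671.1 in wild-type arrays. Of the 3 tested, 3 had higher and 0 lower values in heterozygous colon, with 0 past the adjusted threshold and a median of 0.65. These were Cd3d (0.92, limma adjusted p = 0.734), Cd3g (0.65, limma adjusted p = 0.874) and Thy1 (0.14, limma adjusted p = 0.945). All had overlapping groups. The median stayed positive with each array left out in turn, and was lowest, at 0.37, without heterozygous replicate 3. The part of T cells in the Ltb values was not tested. Bcl6, a repressor needed for germinal centres, read 290.2, 248.2 and 206.7 in heterozygous colon, against 127.3, 188 and 210.2 in wild-type colon (0.48, SE 0.20; limma adjusted p = 0.859), with overlapping groups. Its dimmer probe set had the opposite sign.

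Among follicle organisers, 4 of 7 genes on the array were tested, with 2 higher and 2 lower and a median of 0.04. The 2 higher were Cxcl13 and Ltb (1.04), and Ltb is also counted among the further B-cell genes. The median of the follicle organisers was -0.19 with wild-type replicate 2 left out and 0.34 with wild-type replicate 3 left out. It was also negative when heterozygous replicate 1 (-0.05) or wild-type replicate 1 (-0.02) was omitted. Cxcl13, the chemokine that draws B cells into follicles, read 462.3, 384.6 and 385.6 in heterozygous colon, against 367.2, 217.3 and 661.2 in wild-type colon. Its 2 highest arrays were again heterozygous replicate 1 and wild-type replicate 3. The difference was 0.12 (SE 0.32; limma adjusted p = 0.985), and Ltbr, the receptor of lymphotoxin, had -0.25 (limma adjusted p = 0.910).

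Plasma cell genes beyond the members had values in both directions. Of 12 on the array, 10 were tested, 5 higher and 5 lower, with 0 past the adjusted threshold and a median of -0.06. The sign of the median rested on 1 array: it was 0.07 with heterozygous replicate 1 left out, and between -0.13 (heterozygous replicate 2) and -0.02 (wild-type replicate 2) when another was omitted. Igha, the IgA heavy chain, read 14756.8, 15214.5 and 16578.5 in heterozygous colon, against 13842.7, 13240.2 and 16577.1 in wild-type colon at its brightest probe set (0.10; limma adjusted p = 0.936). Its 3 probe sets each varied by 1.22 to 1.35 times between the highest and lowest array, against 1.40 times for Jchain. Creld2, a chaperone of the endoplasmic reticulum, had the largest positive difference among the list's 3 smallest p-values (0.50, SE 0.21; limma adjusted p = 0.859), with overlapping groups. Edem1, of the same compartment, was lower in every heterozygous array (-0.15; limma adjusted p = 0.916), as were 5.06% of all tested genes, and its other tested probe set had 0.11. Both are used by secretory cells in general. Sdc1, which plasma cells share with epithelium, had -0.28 (limma adjusted p = 0.923), and its other tested probe sets had -0.27, -0.13 and 0.092.

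Genes of homing and transport also had values in both directions. Of 6 tested genes of homing and IgA class switch, 4 were higher and 2 lower, with a median of 0.18. It was 0.02 with wild-type replicate 1 left out and 0.11 with heterozygous replicate 3 left out, and at most 0.24, with wild-type replicate 3 left out. The 3 with the smallest p were Tnfsf13b, the survival cytokine BAFF (0.34; limma adjusted p = 0.928), Madcam1, the address in gut venules (0.19; 0.947) and the class-switch cytokine Tgfb1 (0.19; 0.953). Epithelial chemokine Ccl28, which draws IgA plasma cells to the colon, read 288.9, 186.9 and 174 in heterozygous colon and 175, 145.6 and 252.7 in wild-type colon. Of 9 tested genes of epithelial transport, Pigr included, 4 were higher and 5 lower, with a median of -0.01 that lay between -0.08 (wild-type replicate 3 omitted) and 0.01 (wild-type replicate 2 omitted). The smallest p-values were those of Ap1m2 (-0.12, limma adjusted p = 0.944), Stx3 (-0.11, limma adjusted p = 0.947) and Exoc4 (0.12, limma adjusted p = 0.947). These genes encode an adaptor subunit, a fusion protein and a tethering subunit of vesicle traffic. Other tested probe sets had 0.23 and -0.0036 for Stx3, and 0.0077 and 0.013 for Exoc4.

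The genes whose pattern over the 6 arrays was most like that of a member were found by Pearson's r of log2(signal + 16), among 3775 tested genes (3774 for Plcg2, itself among them) that varied by at least 0.5 log2. For Cd79a these were Tbc1d19 (r = 0.994), Atp2c1 (0.994) and Plagl1 (0.992). For Jchain they were Calhm5 (0.981), Pdgfc (0.980) and Evl (0.97). For Pigr they were Pcsk6 (0.968), Tmem158 (0.956) and Vldlr (0.954), and for Plcg2 Uvrag (0.984), Zfand2b (0.983) and Mau2 (0.979). These are the highest of many values over 6 arrays, and none is a B-cell gene of the lists. That absence was partly fixed by the filter. Cd79b, Cd22 and 13 of the 23 further B-cell genes were below the level for testing, and Jchain spanned 0.49 log2, so they could not appear. The 6 points share the same animals and array scaling.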

How the data were processed

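Total RNA from heterozygous and wild-type colon, for 3 arrays each, was amplified, labelled with biotin and hybridised, per the labels' protocols. The deposited linear intensities come from GCOS, the array maker's software, per the submitters' processing notes, with settings not given in these sources. Each deposited array had a mean intensity of 500 without the top and bottom 2% of probe sets, so arrays were already scaled. Of 22690 probe sets, 64 controls were left out. Gene symbols came from the platform annotation, with 20380 probe sets of 1 symbol, 691 of several and 1555 of none; updating through gene numbers changed 0. No depth exists for arrays, and their number, 3 a group, limits precision.

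Values entered as log2(signal + 16), which understates changes of dim genes. Array medians differed by 0.09 log2, under the bound of 0.3, so no further scaling was done. After the 40th percentile filter, 13576 probe sets entered limma 3.58.1 under R 4.3.3 (lmFit, then eBayes with trend, two-sided; Benjamini-Hochberg; threshold 0.05), checked on simulated data. A gene is read at its brightest probe set with 1 symbol. Named are all members, the 3 genes of smallest p in each pathway list, Mthfd1 and the 3 genes most like 4 members; Car1, Igha, Ccl28 and other genes outside the rule were added with their values seen. Members and lists were chosen with earlier results of these data known.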

Additional observations from a re-analysis of the deposited data

How the results depend on the processing

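The count of probe sets past the adjusted threshold was 0 as reported, 2 with median centring and 8 with robust variance, and ran from 0 to 39 when each array was left out in turn, with 39 when heterozygous replicate 1 and 2 when wild-type replicate 3 was omitted. No member was among those calls under any alternative. Plcg2 kept its negative sign under all alternatives run, from -0.65 without wild-type replicate 1 to -0.50 without wild-type replicate 2, with a limma adjusted p between 0.263 and 0.9998. The follicle minus plasma cell difference ran from -0.58 to -0.04 with arrays left out in turn, lowest when heterozygous replicate 1 and highest when wild-type replicate 3 was omitted, and was -0.48 with Pou2af1 left out. The sign of the brighter Pigr probe set turned with quantile normalization (-0.021); with arrays left out in turn this Pigr value ran from -0.071 to 0.077, negative when heterozygous replicate 2 or wild-type replicate 1 was the one omitted. Ms4a1 ran from -0.98 without wild-type replicate 2 to 0.29 without wild-type replicate 3, and was 0.0022 without heterozygous replicate 3. The cause was not tested. The replicate number as a block left Plcg2 at -0.58 (limma adjusted p = 0.531) and 0 probe sets past the threshold. Same-numbered arrays correlated at -0.12, 0.49 and 0.04 in their deviations from the group means, and differently numbered ones at -0.47 to 0.42. The labels state no pairing, and so few values cannot decide whether the numbers pair the animals. The deposited values hold no detection call, which limits every statement on Cd79a, Cd79b, Cd22, Tnfrsf17 and the other genes below the level for testing, Ccr6, Cr2, Cxcr5, Fcer2a and Tnfrsf13b among them.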

Other observations

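Probe sets of light-chain variable segments differed widely in how much they varied between animals. Of 18 probe sets named for a single Igkv or Iglv segment, 9 were tested, and their highest array exceeded their lowest by 1.27 to 10.8 times, against 1.22 to 1.35 times for the 3 probe sets of Igha. The bright segment Igkv8-30 was as steady as Igha, at 4856.7, 5162.6 and 4679.8 in heterozygous colon, against 4275.1, 4062.1 and 4760 in wild-type colon. The widest, a probe set of Igkv9-120 that can share sequence with other segments, read 1456.2, 3192.1 and 2840.5 in heterozygous colon, against 708.9, 578.4 and 6263.6 in wild-type colon. Another tested probe set of the same symbol varied 1.74 times and read 227.2, 172.7 and 220.6 in heterozygous colon, against 195.8, 157.1 and 272.6 in wild-type colon. The segment Iglv1 read 1494, 1039.4 and 936.6 in heterozygous colon, against 670.6, 1251 and 708.1 in wild-type colon. One Ighm probe set read 52.9, 236.9 and 438.8 in heterozygous colon, against 41.4, 63.2 and 50.5 in wild-type colon, while the brightest Ighm probe set read 307.1, 167.3 and 228.6 in heterozygous and 100.2, 127.5 and 243.7 in wild-type colon. These probe sets were picked after their values had been seen, and related immunoglobulin segments can share sequence. The genotypes overlapped at each probe set named here.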
